A study of Glycine max with 36 samples.

Results

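Small RNAs that matched annotated genes were compared between the cotyledons of the soybean seed and the cotyledons of the germinating seedling. The comparison used 8 of the 36 libraries of the series: 2 from seed cotyledons and 6 from seedling cotyledons, 1 library per stage. All came from the cultivar Williams, which has a yellow seed coat with a black hilum and the genotype i-i R T. One seed library was made from immature yellow seeds of 200 to 300 mg with the embryo axis removed, and the other from cotyledons of mature dry seed. The seedling libraries ran from stage 1, yellow seed imbibed and kept 48 h underground, through stage 3, with a radicle of 16 to 25 mm, and stage 4, when cotyledons with green edges broke the ground on a hypocotyl of 40 to 50 mm. At stage 5 the cotyledons were above ground and part green, at stage 6 mostly green, and at stage 7 fully green on plantlets of 7 to 8 cm. The stage 2 library was left out, because it held 965304 gene hits on 1122 genes.

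Cotyledons are the storage leaves of the soybean embryo. They fill with protein and oil during seed development, dry down with the protection of late embryogenesis abundant (LEA) proteins, and after germination break down those reserves and become green. Plant small RNAs are cut by Dicer-like enzymes and loaded into Argonaute proteins, which they guide to complementary RNA. A microRNA, or a small RNA made from double-stranded RNA, that pairs with a transcript is counted on the antisense strand of that gene, whereas a fragment of the transcript itself is counted on the sense strand. Hits on a gene are therefore a level of small RNA matching it and not its expression, so the organ labels could not be checked against marker gene expression. Gene names are the descriptions in the deposited table, which for most genes are those of the closest Arabidopsis gene, and roles given here are the ones known in Arabidopsis unless another plant is named.

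The immature library held 61199467 gene hits and the dry library 63575233, against 20103525 to 35812799 in the seedlings. Read numbers, in units of 1000000, were 35.4 to 37.5 in seed and 21.4 to 34.8 in the seedlings. Each read gave 1.63 and 1.80 gene hits in the immature and dry libraries and 0.754 to 1.37 in the seedlings. A ratio above 1 means that gene hits outnumbered library reads. Hits counted as unique were 95.2% of gene hits in the immature library and 93.7% in the dry one, and why hits outnumbered reads was not tested. Of the 52872 genes, 11422 had the same counts as another gene in all 8 libraries. The 20 genes with most hits took 64.8% of all hits in both seed libraries and 72.6 to 78.9% in the seedlings. Levels are given as counts per 1000000 hits (CPM) after TMM scaling, which sets the bulk of genes to the same level in each library. The TMM factors were 0.953 for the immature and 1.48 for the dry library. The order of these 2 libraries for a gene or list is thus given with TMM scaling and can turn with library totals. The labels name 2 library kits and 2 sequencer models without saying which library had which, and no label names a batch. The titles number the seedling libraries 79 to 85 and both seed libraries higher. Kit, sequencer and preparation time can thus not be told apart from seed against seedling. The labels do not say whether a library pools plants, and the p-values measure the spread between stages as well as between samples.

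**Figure D1:**
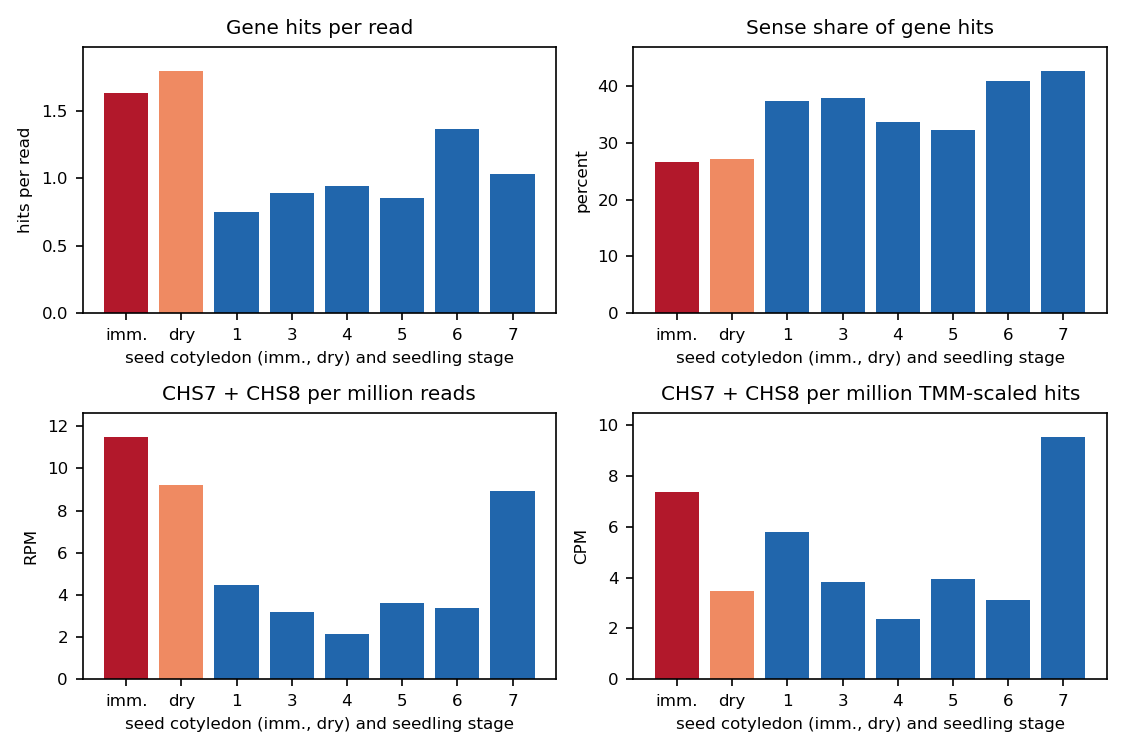
Bars give, for the immature (imm.) and dry seed cotyledon libraries and seedling stages 1 and 3 to 7, gene hits per read, the sense share of gene hits in percent, and the summed level of CHS7 and CHS8 per 1000000 reads (RPM) and per 1000000 TMM-scaled hits (CPM). Both seed libraries stand above all seedlings in hits per read (1.63 and 1.80 against at most 1.37) and below them in sense share, while stage 7 reaches 8.94 RPM for the CHS pair and is highest in CPM.

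Small RNA hits differed between seed and seedling cotyledons on a large part of the genes. Of 17943 genes with enough hits to test, 8383 (46.7%) passed an adjusted p of 0.05 in edgeR's quasi-likelihood test with Benjamini-Hochberg adjustment, which gives every adjusted p below. Of these, 4197 (23.4% of genes tested) were higher in seed and 4186 (23.3%) were lower. Both seed libraries lay outside the range of the 6 seedlings for 9292 genes (51.8%). The genes higher in seed made up 25.1% of all hits in the immature library and 24.3% in the dry library, and 3.3 to 5.8% in the seedlings. Genes lower in seed made up 12.1% and 9.4% in the immature and dry libraries and 28.5 to 43.5% in the seedlings.

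The split between the directions depended on the scaling. Library totals without TMM factors gave 4916 higher and 3183 lower genes, and with scaling to library reads, an alternative chosen after seeing the data, 7591 were higher and 1837 lower. The share of calls in the higher direction moved to 60.7% and 80.5%, and the median log2 fold change over all tested genes from -0.02 to 0.36 and 1.23. Directions below are thus relative to the bulk of genes. All tested genes give the shares beside which each list below is read. With TMM 23.4% of them were higher and 23.3% lower, and with scaling to library reads 42.3% and 10.2%. Set against that median, the SPL genes described below had a median of 2.32 with TMM and 2.16 with scaling to library reads, and photosynthesis genes -2.82 and -3.09. Called genes named below had both seed libraries outside the seedling range unless the overlap is given. Without the dry library 5423 genes were called, and without the immature library 4105.

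Libraries were more alike within the groups than between them. Across the 17943 genes, Spearman's rho of the CPM values was 0.893 between the immature and dry libraries, 0.734 to 0.907 between seedling libraries and 0.447 to 0.557 between a seed and a seedling library. These are descriptions across genes, which are not independent. The gap between the genes higher and lower in seed was then read in the libraries outside the comparison, as the median log2 CPM of the first minus that of the second. It was 3.96 to 4.36 in the seed cotyledons and -1.83 to -1.12 in the seedlings, where in both groups it follows from the choice of genes. In 2 embryo axis libraries of Williams, numbered close to the seed cotyledons, it was 3.17 to 3.39. In 4 seed coat libraries of Williams with close numbers, from dry seed and from immature seed of 100 to 500 mg, it was 2.33 to 2.78. A seed coat library of low number, from a Williams 44 mutation at 50 to 75 mg, had -0.32. The 10 seed coat libraries with higher numbers had -0.23 to 0.81, and they came from Richland, T157 and Clark lines at 5 to 100 mg. Leaf and shoot tip libraries numbered 68 to 90 had -1.35 to -0.84, and the remaining vegetative libraries, with the highest numbers, had -0.21 to 0.21. In 6 of the libraries with higher numbers both medians were the same 3 to 8 hits, so their gap of 0 is that of low whole counts. Library number, organ, cultivar and seed weight differ together here and cannot be told apart.

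**Figure D2:**
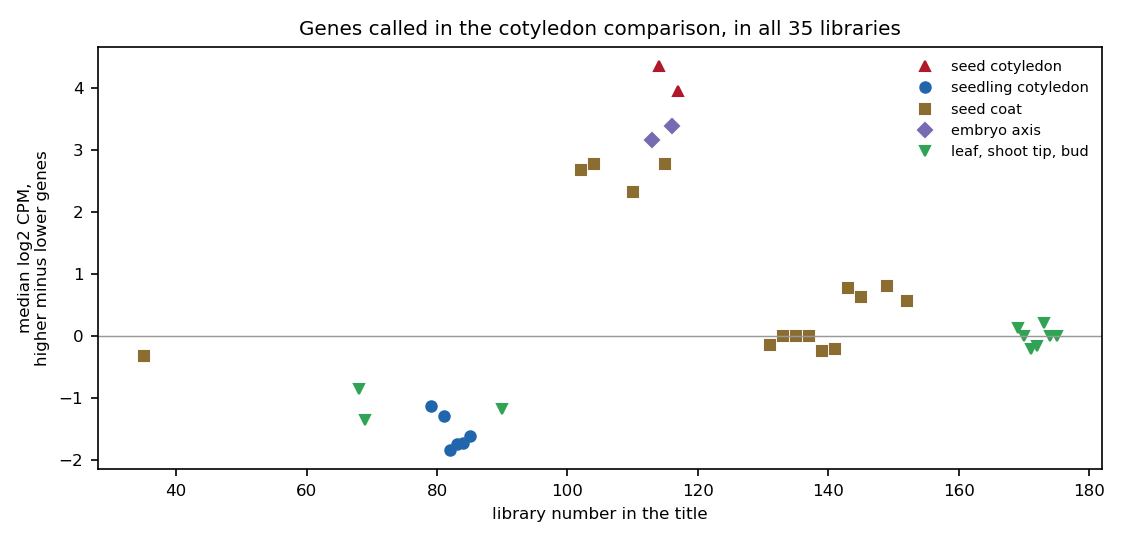
Each point is 1 of the 35 libraries of the series other than stage 2, with the library number of its title on the x axis and, on the y axis, the median log2 CPM of the genes higher in seed cotyledons minus that of the genes lower. The 4 seed coat libraries with numbers next to the seed cotyledons have 2.33 to 2.78. They lie below the embryo axes (3.17 to 3.39) and the seed cotyledons (3.96 to 4.36). The 10 seed coat libraries with higher numbers, which come from other cultivars and lighter seed, have -0.23 to 0.81.

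Genes of the SPL family, transcription factors that include regulators of the juvenile-to-adult transition and targets of the microRNA miR156, mostly carried more small RNA in seed cotyledons. Of 45 SPL genes, 30 of 37 tested (81.1%) were higher and 2 (5.41%) lower in seed, with a median log2 fold change of 2.31. Their summed level was 59768 CPM in the immature library, 27250 in the dry one and 4171 to 11860 in the seedlings. Nearly all of it was antisense, with 0.103% of hits on the sense strand in seed and 0.556% in the seedlings. SPL9 (Glyma.09G113800, chosen after its values were seen) had 2323 CPM in the immature library and 1055 in the dry one, against 164 to 464 in the 6 seedling libraries with a median of 392. For SPL9 the log2 fold change was 2.28 ± 0.45 (SE), with an adjusted p of 0.00193. The immature library was highest and the dry library also lay above every seedling. SPL9 belongs to 24 SPL genes with near-equal counts in all 8 libraries, within 5% of each other, so the 37 tested genes form 14 sets of counts and the 30 higher ones 7 sets. Higher and lower in that order, the counts were 30 and 2 without the dry library, 6 and 2 without the immature library and 34 and 2 with scaling to library reads. Without the immature library the median log2 fold change was 1.48, and 30 genes were higher at an unadjusted p of 0.05. SPL9 then had 1.46 and an adjusted p of 0.0631. A fit that leaves out 1 seed library sets 1 library against 6, so the seedlings alone supply the spread, and over all genes 5423 passed without the dry library and 4105 without the immature one. A call lost there, here and below, does not by itself show a smaller difference.

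A pair of SPL genes outside that set showed sense hits and opposite directions. SPL1 (Glyma.07G234200) had 5.78 CPM in the immature seed library, 2.07 CPM in the dry one and, in the seedlings, a lowest value of 0.1702, a median of 0.246 and a highest of 0.368 CPM, and its seed hits were all sense. For SPL1 the log2 fold change was 3.88 ± 0.50 (SE), with an adjusted p of 0.000135. SPL12 (Glyma.09G082000), which shared near-equal counts with 4 other genes, had 0.326 (immature) and 0.393 CPM (dry) in seed and from 12.8 through a median of 13.7 to 20.4 CPM in the seedlings. For SPL12 the log2 fold change was -5.40 ± 0.52 (SE), with an adjusted p of 2.61e-05. All SPL12 hits were sense, and both seed libraries lay below all seedlings.

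MYB33-type genes, gibberellin-related transcription factors targeted by miR159, were also higher in seed. Of 13 genes, 7 of 8 tested (87.5%) were higher and 0 (0%) lower in seed, with a median log2 fold change of 1.39, in 4 sets of near-equal counts. MYB65 (Glyma.06G312900) had 13527 CPM in the immature library and 6601 in the dry one, against 2254 to 4297 in the 6 seedling libraries with a median of 3276, and nearly all of its hits were antisense. For MYB65 the log2 fold change was 1.65 ± 0.40 (SE), with an adjusted p of 0.00564. MYB33 (Glyma.13G187500, chosen after its values were seen) had 991 CPM in the immature seed library, 917 CPM in the dry one and, in the seedlings, a lowest value of 276, a median of 383 and a highest of 589 CPM. For MYB33 the log2 fold change was 1.26 ± 0.35 (SE), with an adjusted p of 0.0124. With TMM scaling immature and dry cotyledons were close for MYB33 and apart for MYB65, and both lay above all seedlings. These counts were 7 and 0 without the dry library, 0 and 0 without the immature library and 8 and 0 with scaling to library reads. Without the immature library the median log2 fold change was 1.16, and 6 genes were higher at an unadjusted p of 0.05. MYB65 then had 0.88 with an adjusted p of 0.171, and MYB33 1.05 with 0.0815.

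Growth-regulating factors, which promote cell proliferation in leaves and are targeted by miR396, were higher in seed where called. Of 26 genes, 5 of 8 tested (62.5%) were higher and 0 (0%) lower in seed, with a median log2 fold change of 1.19. These counts were 6 and 0 without the dry library, 3 and 0 without the immature library and 6 and 0 with scaling to library reads. GRF5 (Glyma.17G050200) had 28.3 CPM in the immature library and 21.9 in the dry one, against 0.894 to 3.47 in the 6 seedling libraries with a median of 2.48. For GRF5 the log2 fold change was 3.51 ± 0.46 (SE), with an adjusted p of 0.000168. GRF1 (Glyma.14G089093) had 11.3 CPM in the immature seed library, 14.98 CPM in the dry one and, in the seedlings, a lowest value of 1.13, a median of 1.49 and a highest of 2.25 CPM. For GRF1 the log2 fold change was 3.09 ± 0.36 (SE), with an adjusted p of 6.8e-05. Both carried almost only sense hits, 99.9% and 99.6% in seed.

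Auxin response factors, which bind the promoters of auxin-regulated genes and include targets of miR160, miR167 and trans-acting small RNAs, were split. All tested genes gave 23.4% higher and 23.3% lower. Of 67 auxin response factor genes, 12 of 48 tested (25%) were higher and 16 (33.3%) lower in seed, with a median log2 fold change of 0.17. These counts were 11 and 13 without the dry library, 2 and 2 without the immature library and 23 and 2 with scaling to library reads. ARF9 (Glyma.03G070500) had 92.3 CPM in the immature library and 194 in the dry one, against 11.9 to 25.1 in the 6 seedling libraries with a median of 17.6. For ARF9 the log2 fold change was 2.99 ± 0.37 (SE), with an adjusted p of 0.000111. The dry library was the higher of the seed pair, and 0.739% of the seed hits were sense. ARF4 (Glyma.12G171000), a target of trans-acting small RNAs, had 172.6 (immature) and 201 CPM (dry) in seed and from 36.4 through a median of 47.7 to 53.7 CPM in the seedlings. For ARF4 the log2 fold change was 2.00 ± 0.31 (SE), with an adjusted p of 0.000504.

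Homeodomain-leucine zipper genes gave few calls, beside 23.4% higher and 23.3% lower over all tested genes. This list mixes class III genes, which set leaf polarity and are targets of miR165 and miR166, with ANL2-type class IV genes. Of 27 genes, 2 of 21 tested (9.52%) were higher and 5 (23.8%) lower in seed, with a median log2 fold change of -1.31. These counts were 0 and 0 without the dry library, 2 and 4 without the immature library and 7 and 0 with scaling to library reads. Leaving out stage 6 gave 2 and 0, and no gene was called higher without stage 3 or without stage 7. ATHB15 (Glyma.07G016700) had 209.5 CPM in the immature library and 44.7 in the dry one, against 167 to 1015 in the 6 seedling libraries with a median of 564. For ATHB15 the log2 fold change was -2.15 ± 0.76 (SE), with an adjusted p of 0.0353. The immature value lay inside the seedling range and the dry value below it. The ATHB15 adjusted p was 0.253 without the dry library, 0.0632 without stage 6 and 0.144 with scaling to library reads.

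Other families with known microRNA targets were called in both directions or in few members. Over all tested genes 23.4% were higher and 23.3% lower, and with scaling to library reads 42.3% and 10.2%, so shares near these say nothing about a family. Pairs of counts are higher and lower genes in that order. Of 130 NAC-domain genes, some of them targets of miR164, 12 of 50 tested (24%) were higher and 11 (22%) lower in seed, with a median log2 fold change of -0.24. These counts were 8 and 1 without the dry library, 5 and 5 without the immature library and 17 and 5 with scaling to library reads. Among 235 genes with an AP2/ERF domain, a few of them targets of miR172, 22 of 76 tested (28.9%) were higher and 17 (22.4%) lower in seed, with a median log2 fold change of 0.76. The counts became 14 and 7 without the dry library, 10 and 8 without the immature library and 41 and 8 with scaling to library reads. For the GRAS genes, which include miR171 targets, 9 of 51 tested (17.6%) were higher and 7 (13.7%) lower in seed, with a median log2 fold change of 0.21. These counts were 8 and 5 without the dry library, 5 and 4 without the immature library and 22 and 3 with scaling to library reads. In the TCP family of 54 genes, with targets of miR319, 1 of 23 tested (4.35%) were higher and 7 (30.4%) lower in seed, with a median log2 fold change of -0.04. The counts became 1 and 2 without the dry library, 0 and 3 without the immature library and 12 and 4 with scaling to library reads. Of 21 NF-YA genes, subunits of a trimeric transcription factor and targets of miR169, 1 of 10 tested (10%) were higher and 4 (40%) lower in seed, with a median log2 fold change of -0.99. These counts were 0 and 1 without the dry library, 0 and 4 without the immature library and 1 and 0 with scaling to library reads. Of the 14 TIR1 and AFB auxin receptors, targets of miR393, 2 of 11 tested (18.2%) were higher and 1 (9.09%) lower in seed, with a median log2 fold change of -0.47. The counts became 0 and 1 without the dry library, 0 and 0 without the immature library and 3 and 0 with scaling to library reads. Without stage 6 or without stage 7, 1 receptor gene was higher.

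With TMM scaling 23.4% of all tested genes were higher and 23.3% lower, and laccases, at 23.1% and 30.8%, were not far from these shares. The other copper protein list and the sulfate supply list had more members lower and fewer higher. With scaling to library reads 42.3% of all tested genes were higher and 10.2% lower. Laccases then had 34.6% and 19.2%, the other copper proteins 16.7% and 38.9%, and sulfate supply genes 33.3% and 16.7%. Of 59 laccases, copper enzymes of cell wall lignification with miR397 targets, 6 of 26 tested (23.1%) were higher and 8 (30.8%) lower in seed, with a median log2 fold change of -0.97. These counts were 5 and 5 without the dry library, 4 and 3 without the immature library and 9 and 5 with scaling to library reads. The laccase LAC4 (Glyma.01G112600) had 3.91 CPM in the immature library and 6.504 in the dry one, against 0.1702 to 0.378 in the 6 seedling libraries with a median of 0.215. For LAC4 the log2 fold change was 4.39 ± 0.44 (SE), with an adjusted p of 3.22e-05. Another LAC4 gene (Glyma.02G224800) had 0.0514 (immature) and 0.0213 CPM (dry) in seed and from 0.227 through a median of 1.48 to 2.82 CPM in the seedlings. For Glyma.02G224800 the log2 fold change was -5.45 ± 1.06 (SE), with an adjusted p of 0.00171. The first was higher and the second lower in both seed libraries. Among 61 genes for copper superoxide dismutases, plantacyanins and early nodulin-like proteins, 2 of 18 tested (11.1%) were higher and 9 (50%) lower in seed, with a median log2 fold change of -2.78. The counts became 1 and 6 without the dry library, 0 and 3 without the immature library and 3 and 7 with scaling to library reads. Without stage 7, 1 of them was higher. For 39 genes of sulfate and phosphate supply, among them miR395 and miR399 targets, 0 of 12 tested (0%) were higher and 6 (50%) lower in seed, with a median log2 fold change of -1.45. These counts were 0 and 2 without the dry library, 0 and 1 without the immature library and 4 and 2 with scaling to library reads. Without stage 5, 3 were lower. The sulfate transporter SULTR3;4 (Glyma.07G006500) had no hit in the seed libraries or at stage 1 and 0.638 to 1.64 CPM at stages 3 to 7, so the groups overlapped. It was called lower in seed (at least 47.9-fold lower, adjusted p = 0.00457). Its adjusted p without the immature library was 0.053.

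**Figure D3:**
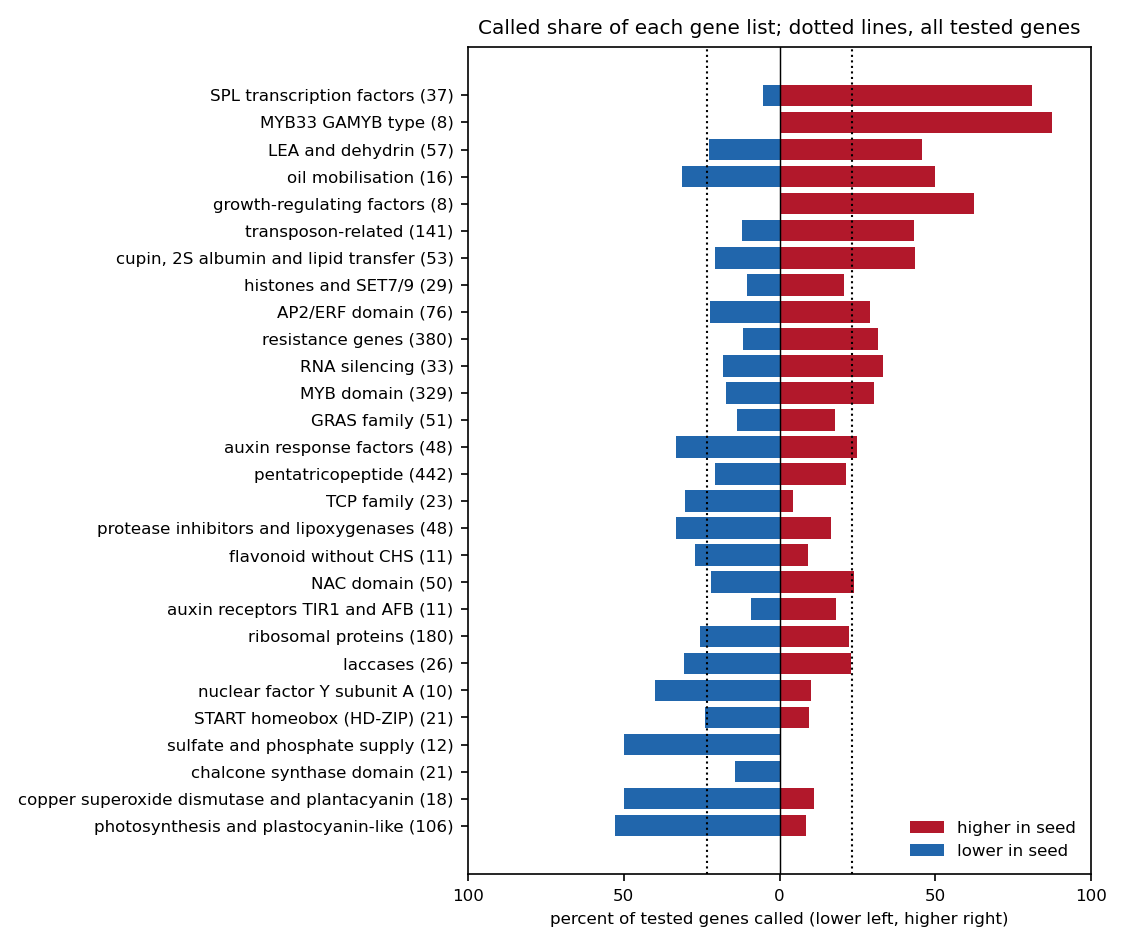
Each row is a gene list with at least 8 tested members, their number in brackets, with bars for the percentage of its tested members that were higher and lower in seed cotyledons and dotted lines for the share over all 17943 tested genes (23.4% higher, 23.3% lower). MYB33-type and SPL genes have the highest shares of members higher in seed, 7 of 8 and 30 of 37, and photosynthesis genes have 56 of 106 lower. Genes with near-equal counts are each counted. By sets of such genes, MYB33-type genes have 4 of 5 higher, SPL genes 7 of 14 and growth-regulating factors 5 of 8.

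Genes of the silencing machinery itself carried small RNAs in seed and seedling cotyledons, some higher and some lower. The shares over all tested genes were 23.4% higher and 23.3% lower. Of 55 silencing genes, 11 of 33 tested (33.3%) were higher and 6 (18.2%) lower in seed, with a median log2 fold change of 0.48. These counts were 10 and 3 without the dry library, 5 and 1 without the immature library and 19 and 3 with scaling to library reads. AGO10, an Argonaute that sequesters miR166 in the shoot apex, was higher in seed for the genes given next. Glyma.17G119400 (chosen after its values were seen) had 50.8 CPM in the immature library and 65.4 in the dry one, against 4.25 to 9.59 in the 6 seedling libraries with a median of 7.31, all of them sense hits. For Glyma.17G119400 the log2 fold change was 3.05 ± 0.37 (SE), with an adjusted p of 8.93e-05. Glyma.02G002500 had 11.6 CPM in the immature seed library, 5.48 CPM in the dry one and, in the seedlings, a lowest value of 0.0762, a median of 0.152 and a highest of 0.529 CPM, with 1.26% sense hits in seed and 72.7% in the seedlings. For Glyma.02G002500 the log2 fold change was 5.33 ± 0.58 (SE), with an adjusted p of 4.88e-05. Another AGO10 gene (Glyma.10G002700) had the same counts in every library, and whether both count the same reads was not tested. DCL2 (Glyma.09G025300, chosen after its values were seen), a Dicer acting in secondary small RNA production, had 49.4 (immature) and 23.9 CPM (dry) in seed and from 9.42 through a median of 12.6 to 18.7 CPM in the seedlings. For DCL2 the log2 fold change was 1.43 ± 0.40 (SE), with an adjusted p of 0.0126. Adjusted p for DCL2 was 0.307 without the immature library.

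AGO2 and RDR6 were lower in seed. AGO2 (Glyma.20G022900), an antiviral Argonaute and target of miR403, had 0.394 CPM in the immature library and 0.489 in the dry one, against 1.06 to 12.02 in the 6 seedling libraries with a median of 5.35, nearly all antisense. For AGO2 the log2 fold change was -3.86 ± 0.86 (SE), with an adjusted p of 0.00388. Without the immature library its adjusted p was 0.0569. RDR6 (Glyma.04G067300), the polymerase that makes double-stranded RNA for trans-acting small RNAs, had 0.0857 CPM in the immature seed library, 0.106 CPM in the dry one and, in the seedlings, a lowest value of 0.864, a median of 1.56 and a highest of 2.55 CPM. For RDR6 the log2 fold change was -4.06 ± 0.68 (SE), with an adjusted p of 0.000734. DCL1 (Glyma.19G261200, chosen after its values were seen), the Dicer of microRNAs and a target of miR162, had 30.4 (immature) and 75.2 CPM (dry) in seed and from 27.1 through a median of 33.8 to 52.5 CPM in the seedlings and did not pass. For DCL1 the log2 fold change was 0.48 ± 0.43 (SE), with an adjusted p of 0.379. With scaling to library reads DCL1 was higher, at an adjusted p of 0.00365.

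LEA and dehydrin genes, whose proteins protect cells in the drying seed, carried mainly sense hits in seed. Of 194 genes, 26 of 57 tested (45.6%) were higher and 13 (22.8%) lower in seed, with a median log2 fold change of 1.35. These counts were 23 and 5 without the dry library, 21 and 7 without the immature library and 31 and 8 with scaling to library reads. Sense hits made up 89.4% of the list's hits in seed and 22.5% in the seedlings. Its summed level was 390.2 CPM in the immature library, 268 in the dry one and 105 to 225 in the seedlings. LEA4-5 (Glyma.03G144400) had 2.43 CPM in the immature library and 2.54 in the dry one, against 0.0378 CPM at stage 1, which is 1 hit, and no hit at stages 3 to 7 (387-fold higher, 95% counting interval 69.1 to 15339, adjusted p = 2.4e-05). A second LEA4-5 gene (Glyma.19G147200, chosen after its values were seen) had 3.72 (immature) and 2.98 CPM (dry) in seed and from 0 through a median of 0 to 0.113 CPM in the seedlings (168-fold higher, 95% counting interval 57.3 to 819.5, adjusted p = 8.15e-05). For both, stage 1 was the only seedling library with a hit.

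Some other members were higher in seed. A dehydrin gene (Glyma.07G090400, chosen after its values were seen) had 125 and 93.2 CPM in the immature and dry libraries, 16.7 at stage 1 and 0.613 to 2.40 at the later stages. For Glyma.07G090400 the log2 fold change was 4.86 ± 1.00 (SE), with an adjusted p of 0.00251. LEA14 (Glyma.16G031300, chosen after its values were seen) had 3.86 and 1.64 CPM in seed and no hit in any seedling library, at least 128-fold higher in seed against a floor of 3 counts over the seedling libraries together. A seed maturation protein gene (Glyma.10G027600), with 1 hit over all seedlings, had 4.94 CPM in the immature seed library, 0.935 CPM in the dry one and, in the seedlings, a lowest value of 0, a median of 0 and a highest of 0.0378 CPM (382-fold higher, 95% counting interval 68.2 to 15138, adjusted p = 4.52e-05). The LEA-domain gene Glyma.17G040800 had 30.2 (immature) and 7.52 CPM (dry) in seed and from 0 through a median of 0.227 to 0.302 CPM in the seedlings, with 99.4% sense hits in seed and 15.4% in the seedlings. For Glyma.17G040800 the log2 fold change was 6.75 ± 0.74 (SE), with an adjusted p of 4.88e-05. With TMM scaling the immature library held more than the dry one in all 4 genes, and both lay above every seedling. Others of the list were lower. A LEA-related gene with a root cap domain (Glyma.11G147700) had 0.0857 CPM in the immature library and 0.08502 in the dry one, against 0.939 to 2.77 in the 6 seedling libraries with a median of 1.86. For Glyma.11G147700 the log2 fold change was -4.38 ± 0.72 (SE), with an adjusted p of 0.00065. Another gene of the same description (Glyma.12G068800) had 0.0514 (immature) and 0.106 CPM (dry) in seed and from 0.615 through a median of 1.08 to 1.9998 CPM in the seedlings. For Glyma.12G068800 the log2 fold change was -3.81 ± 0.74 (SE), with an adjusted p of 0.00176. Both seed libraries lay below all seedlings for this pair.

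The storage protein list, which holds cupins and seed albumins but also lipid transfer proteins, auxin-binding proteins and 2-oxoglutarate oxygenases found by the same domain names, was split. Of 299 genes, 23 of 53 tested (43.4%) were higher and 11 (20.8%) lower in seed, with a median log2 fold change of 0.99. These counts were 21 and 9 without the dry library, 10 and 9 without the immature library and 32 and 6 with scaling to library reads. Cruciferin-type CRA1 genes, 11S globulins like the soybean glycinins, carried sense hits. CRA1 gene Glyma.03G163467 (chosen after its values were seen) had 16.5 CPM in the immature library and 4.06 in the dry one, against 0.564 to 1.59 in the 6 seedling libraries with a median of 1.07. For Glyma.03G163467 the log2 fold change was 3.32 ± 0.49 (SE), with an adjusted p of 0.000339. CRA1 gene Glyma.19G164900 (chosen after its values were seen) had 14.2 CPM in the immature seed library, 3.49 CPM in the dry one and, in the seedlings, a lowest value of 0.0851, a median of 0.399 and a highest of 1.095 CPM. For Glyma.19G164900 the log2 fold change was 4.16 ± 0.68 (SE), with an adjusted p of 0.00066. Another, Glyma.10G037100 (chosen after its values were seen), had 12.6 (immature) and 4.18 CPM (dry) in seed and from 3.43 through a median of 9.12 to 14.1 CPM in the seedlings and did not pass. For Glyma.10G037100 the log2 fold change was -0.12 ± 0.54 (SE), with an adjusted p of 0.864. The immature library held more than the dry one for all 3, and for the last the seed values lay within the seedling range.

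PAP85 (Glyma.20G148300, chosen after its values were seen), a vicilin-type cupin gene, had 4.85 CPM in the immature library and 2.66 in the dry one, against 0.596 to 1.397 in the 6 seedling libraries with a median of 0.887, and an adjusted p of 0.104 without the immature library. For PAP85 the log2 fold change was 1.97 ± 0.44 (SE), with an adjusted p of 0.00386. Among the non-storage members, an oxygenase gene (Glyma.12G055000) had 15.6 CPM in the immature seed library, 12.7 CPM in the dry one and, in the seedlings, a lowest value of 0.128, a median of 0.521 and a highest of 0.864 CPM. For Glyma.12G055000 the log2 fold change was 4.65 ± 0.49 (SE), with an adjusted p of 4.02e-05. The lipid transfer protein LTP1 (Glyma.03G040100) had no hit in seed and 0.302 to 1.20 CPM in the seedlings, at least 35.1-fold lower. Of 21 genes for oleosins, the coat proteins of oil bodies, 0 of 2 tested were higher and 1 lower in seed, with a median log2 fold change of -1.55. The counts became 0 and 0 without the dry library, 0 and 0 without the immature library and 0 and 0 with scaling to library reads. Among 16 seed maturation regulators, 1 of 6 tested were higher and 2 lower in seed, with a median log2 fold change of -1.25. These counts were 0 and 2 without the dry library, 1 and 2 without the immature library and 1 and 0 with scaling to library reads.

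ABI3, the transcription factor of seed maturation and abscisic acid response, was lower in seed for a pair of genes. Glyma.18G176100 had 0.309 CPM in the immature library and 0.956 in the dry one, against 2.89 to 4.34 in the 6 seedling libraries with a median of 3.49, with no sense hit. For Glyma.18G176100 the log2 fold change was -2.48 ± 0.54 (SE), with an adjusted p of 0.00328. Glyma.08G357600 had 0.874 CPM in the immature seed library, 1.34 CPM in the dry one and, in the seedlings, a lowest value of 2.98, a median of 4.002 and a highest of 4.796 CPM, with no sense hit in seed. For Glyma.08G357600 the log2 fold change was -1.83 ± 0.44 (SE), with an adjusted p of 0.00547. Hits on these genes were thus antisense and below every seedling in both seed libraries. With scaling to library reads the log2 fold changes were -1.08 and -0.52, with adjusted p of 0.134 and 0.351.

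**Figure D4:**
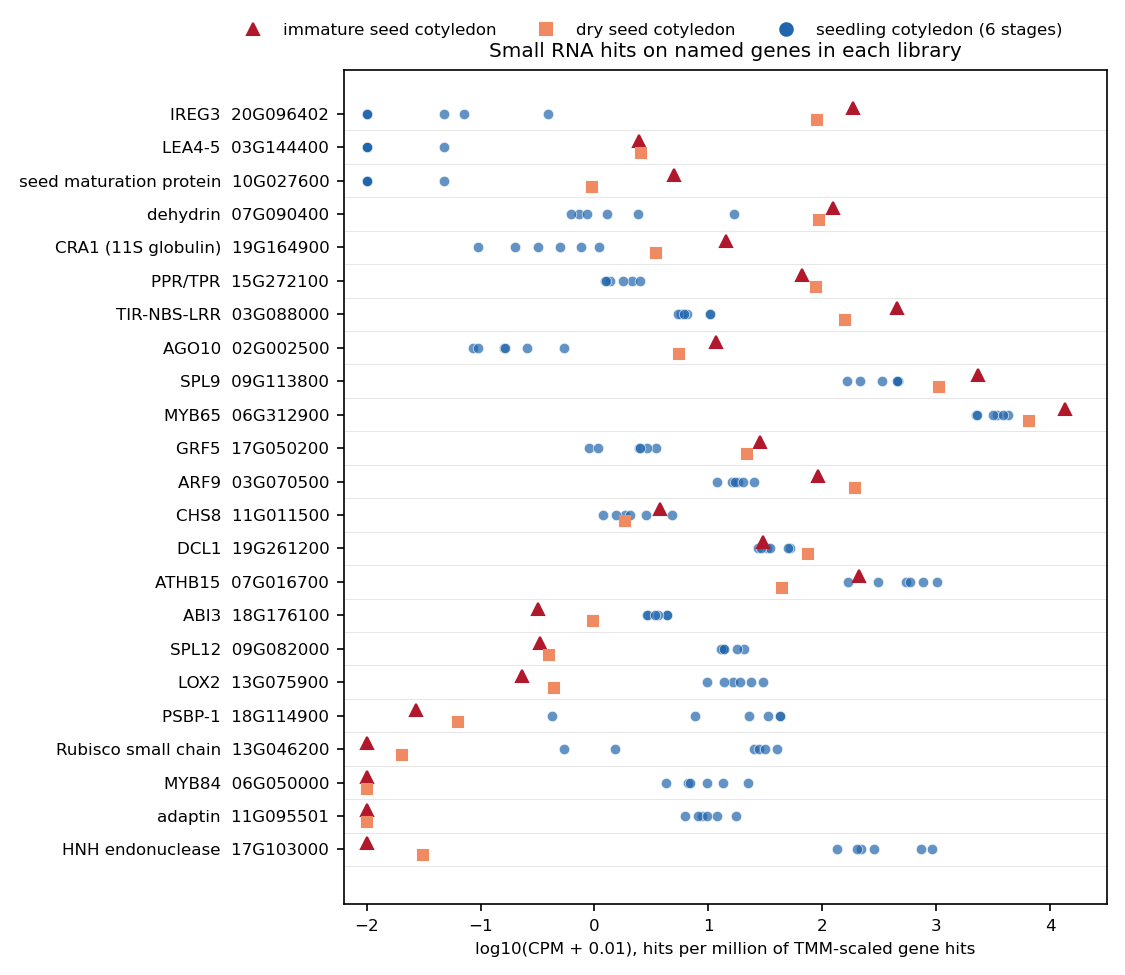
Points give the level of selected genes in each of the 8 libraries as log10(CPM + 0.01), with triangles for immature seed, squares for dry seed and circles for the seedling stages. Genes of seed maturation such as the dehydrin gene (125 and 93.2 CPM in seed) are near or below 1 CPM in most seedlings, and the Rubisco small chain gene shows the reverse, with 25.2 to 40.3 CPM at stages 4 to 7.

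Photosynthesis genes were more often lower than higher in seed. The summed level of the list did not follow that count in every library. It was 741 CPM in the immature library, above 419 and 477 at stages 1 and 3, and 267 in the dry one. At stages 4 to 7 it was 1050 to 2019 CPM. Of 275 genes, which include some plastocyanin-like genes of other function, 9 of 106 tested (8.49%) were higher and 56 (52.8%) lower in seed, with a median log2 fold change of -2.83. These counts were 7 and 19 without the dry library, 3 and 11 without the immature library and 20 and 34 with scaling to library reads. The Rubisco small chain gene Glyma.13G046200, part of the carbon-fixing enzyme, had no hit in the immature library, 0.0106 CPM in the dry one, 0.529 at stage 1, 1.502 at stage 3 and 25.2 to 40.3 at stages 4 to 7 (3191-fold lower, 95% counting interval 572 to 126069, adjusted p = 0.00198). PSBP-1 (Glyma.18G114900, chosen after its values were seen), of the oxygen-evolving complex of photosystem II, had 0.0171 and 0.0531 CPM in seed, 0.415 and 7.66 at stages 1 and 3, and 22.9 to 42.5 at stages 4 to 7. For PSBP-1 the log2 fold change was -9.24 ± 1.78 (SE), with an adjusted p of 0.00165. Stage 1, with yellow cotyledons, was thus the seedling library nearest to seed for both, and it still lay above both seed libraries. Hits on these genes were all sense. From stage 4 on the values of PSBP-1 did not follow the order of stages, with 42.2 CPM at stage 4 and 22.9 at stage 5. A plastocyanin-like gene (Glyma.07G178200) had 4.49 CPM at stage 1 and its lowest seedling value, 1.56, at stage 5, against 0.0514 and 0.0531 CPM in the immature and dry libraries. For Glyma.07G178200 the log2 fold change was -5.73 ± 0.70 (SE), with an adjusted p of 9.54e-05.

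PSBR (Glyma.08G173700, chosen after its values were seen), another photosystem II subunit, had 1.59 CPM in the immature library and 0.765 in the dry one, against 3.06 to 71.7 in the 6 seedling libraries with a median of 40.5, and its adjusted p was 0.0517 without the dry library. For PSBR the log2 fold change was -5.08 ± 1.12 (SE), with an adjusted p of 0.00365. The chlorophyll-binding LHCB1 gene (Glyma.05G128000, chosen after its values were seen) had no hit in the immature library or at stage 1, 0.0213 CPM in the dry one, 0.225 at stage 3 and 2.13 to 5.45 later, highest at stage 5 (178-fold lower, 95% counting interval 48.8 to 1472, adjusted p = 0.0103). Rubisco activase (Glyma.18G036400, chosen after its values were seen) had no hit in seed or at stages 1 and 3 and 0.820 to 5.02 CPM later (at least 109-fold lower, adjusted p = 0.018). For both genes stage 1 overlapped seed. Their calls were lost without either seed library, with adjusted p of 0.0655 and 0.11 for LHCB1 and 0.11 and 0.115 for the activase, the first of each pair without the dry library.

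**Figure D5:**
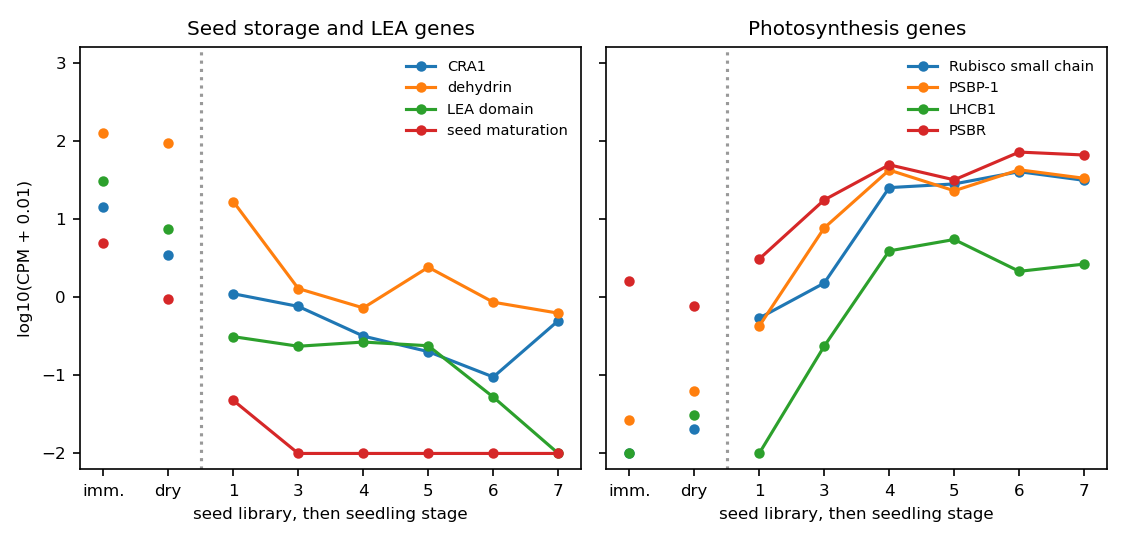
Points give log10(CPM + 0.01) of 4 storage and LEA genes and 4 photosynthesis genes in the immature and dry seed libraries and at seedling stages 1 and 3 to 7, with lines joining the seedling stages of a gene. The dehydrin gene has 93.2 CPM in dry seed, 16.7 at stage 1 and 1.28 at stage 3, while the Rubisco small chain gene goes from 0.529 at stage 1 to 25.2 CPM at stage 4.

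Genes of reserve breakdown and defence proteins of the cotyledon were called in both directions. Of 47 genes of oil mobilisation, 8 of 16 tested (50%) were higher and 5 (31.2%) lower in seed, with a median log2 fold change of 1.25. These counts were 5 and 3 without the dry library, 3 and 2 without the immature library and 10 and 2 with scaling to library reads. Acyl-CoA oxidase ACX1 (Glyma.01G207500), of fatty acid beta-oxidation, had 7.49 CPM in the immature library and 3.17 in the dry one, against 0.307 to 0.762 in the 6 seedling libraries with a median of 0.471. For ACX1 the log2 fold change was 3.42 ± 0.45 (SE), with an adjusted p of 0.000161. Malate synthase (Glyma.17G128100), of the glyoxylate cycle, had 0.703 (immature) and 0.755 CPM (dry) in seed and from 0.0381 through a median of 0.0938 to 0.123 CPM in the seedlings. For Glyma.17G128100 the log2 fold change was 2.98 ± 0.59 (SE), with an adjusted p of 0.00193. PCK1 (Glyma.09G203500), which feeds sugar synthesis from oil, had no hit in seed and 0.189 to 1.029 CPM in the seedlings, at least 26.6-fold lower. Hits on this list were 96.2% sense in seed and 96.9% in the seedlings.

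Protease inhibitors and lipoxygenases are abundant proteins of the soybean cotyledon. Among all tested genes 23.4% were higher and 23.3% lower. Of 110 inhibitor and lipoxygenase genes, 8 of 48 tested (16.7%) were higher and 16 (33.3%) lower in seed, with a median log2 fold change of -0.18. For that list the alternatives gave 4 and 3 without the dry library, 5 and 2 without the immature library and 14 and 9 with scaling to library reads, and 10 were lower without stage 6. LOX2 (Glyma.13G075900), a lipoxygenase of jasmonate synthesis, had 0.223 CPM in the immature library and 0.436 in the dry one, against 9.79 to 30.2 in the 6 seedling libraries with a median of 17.6, all sense. For LOX2 the log2 fold change was -5.80 ± 0.68 (SE), with an adjusted p of 7.21e-05. A Kunitz trypsin inhibitor gene (Glyma.12G234800) had 5.09 CPM in the immature seed library, 4.75 CPM in the dry one and, in the seedlings, a lowest value of 0, a median of 0.184 and a highest of 0.337 CPM. For Glyma.12G234800 the log2 fold change was 4.75 ± 0.68 (SE), with an adjusted p of 0.00028. The inhibitor was higher and LOX2 lower in both seed libraries.

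Disease resistance genes of the NBS-LRR class, which in legumes are targeted by microRNAs that start phased small RNAs, were more often higher than lower in seed. The shares over all tested genes were 23.4% higher and 23.3% lower. Of 516 resistance genes, 120 of 380 tested (31.6%) were higher and 44 (11.6%) lower in seed, with a median log2 fold change of 0.52. These counts were 107 and 17 without the dry library, 33 and 11 without the immature library and 220 and 13 with scaling to library reads. Without stage 6, 29 were lower. Their summed level was 40996 CPM in the immature library, 20227 in the dry one and 7715 to 19902 in the seedlings. Glyma.03G088000 had 452 CPM in the immature library and 159 in the dry one, against 5.38 to 10.4 in the 6 seedling libraries with a median of 6.26, with 98.7% sense hits in seed and 57.8% in the seedlings. For Glyma.03G088000 the log2 fold change was 5.37 ± 0.43 (SE), with an adjusted p of 1.41e-05. Its antisense hits alone gave no call. Glyma.12G027100 had 2.45 CPM in the immature seed library, 1.88 CPM in the dry one and, in the seedlings, a lowest value of 15.7, a median of 16.5 and a highest of 23.6 CPM, and its antisense hits alone gave no call either. For Glyma.12G027100 the log2 fold change was -3.09 ± 0.44 (SE), with an adjusted p of 0.000281.

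Pentatricopeptide repeat genes, RNA-binding proteins of organelles and sources of phased small RNAs in several plants, were called at about the shares of all tested genes, which were 23.4% higher and 23.3% lower. Of 967 genes, a list that holds some tetratricopeptide repeat genes, 94 of 442 tested (21.3%) were higher and 92 (20.8%) lower in seed, with a median log2 fold change of 0.08. These counts were 82 and 58 without the dry library, 45 and 43 without the immature library and 197 and 39 with scaling to library reads. Glyma.15G272100 had 66.1 CPM in the immature library and 87.4 in the dry one, against 1.23 to 2.48 in the 6 seedling libraries with a median of 1.57, with nearly all seed hits sense. For Glyma.15G272100 the log2 fold change was 5.49 ± 0.37 (SE), with an adjusted p of 9.11e-06. Glyma.13G060751 had 0.0686 CPM in the immature seed library, 0.0531 CPM in the dry one and, in the seedlings, a lowest value of 7.32, a median of 9.71 and a highest of 14.3 CPM, with no sense hit in the seedlings. For Glyma.13G060751 the log2 fold change was -7.31 ± 0.65 (SE), with an adjusted p of 1.86e-05. Of 831 genes with a MYB domain, 100 of 329 tested (30.4%) were higher and 57 (17.3%) lower in seed, with a median log2 fold change of 0.44. The counts became 80 and 24 without the dry library, 37 and 25 without the immature library and 167 and 23 with scaling to library reads. These include the MYB33-type genes. The 329 tested genes form 295 sets of near-equal counts, and the 100 higher ones 78. MYB84 (Glyma.06G050000), a regulator of axillary meristems, had no hit in seed and 4.202 to 22.3 CPM in the seedlings, all antisense and at least 544-fold lower in seed.

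Lists not tied to microRNAs gave these counts, beside 23.4% higher and 23.3% lower over all tested genes. Of 660 ribosomal protein genes, 40 of 180 tested (22.2%) were higher and 46 (25.6%) lower in seed, with a median log2 fold change of -0.56. These counts were 30 and 24 without the dry library, 23 and 21 without the immature library and 64 and 24 with scaling to library reads. RPS6B (Glyma.18G151800) had 64.1 CPM in the immature library and 65.7 in the dry one, against 3.43 to 5.78 in the 6 seedling libraries with a median of 4.29, an L19e gene (Glyma.10G016400) had a log2 fold change of 5.03, and an L2 gene (Glyma.16G129700) one of -6.03. For RPS6B the log2 fold change was 3.86 ± 0.32 (SE), with an adjusted p of 1.41e-05. Among 123 histone and SET7/9-domain genes, 6 of 29 tested (20.7%) were higher and 3 (10.3%) lower in seed, with a median log2 fold change of 0.81. The counts became 6 and 2 without the dry library, 1 and 2 without the immature library and 13 and 2 with scaling to library reads. Of 252 genes described as transposon-related, 61 (43.3% of those tested) were higher and 17 (12.1%) lower in seed, with a median log2 fold change of 1.01. These counts were 58 and 14 without the dry library and 34 and 11 without the immature library. With scaling to library reads 73.8% of those tested were higher and 9.93% lower. These included a TTF-type zinc finger gene (Glyma.02G163400), with 11.2 (immature) and 9.21 CPM (dry) in seed and from 0.191 through a median of 0.489 to 0.755 CPM in the seedlings. For Glyma.02G163400 the log2 fold change was 4.37 ± 0.43 (SE), with an adjusted p of 3.05e-05. FRS5 (Glyma.10G121700), of a family derived from transposases, had no hit in seed and 0.944 to 4.30 CPM in the seedlings, at least 117.05-fold lower.

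Chalcone synthase (CHS) makes the first flavonoid, and in Williams seed coats small RNAs from an inverted repeat of CHS genes silence the family, which leaves the coat yellow. The summed level of hits matching CHS7 and CHS8, in the authors' counts per 1000000 library reads (RPM), was 11.5 in the immature and 9.21 in the dry library and 4.48, 3.19, 2.15, 3.63, 3.36 and 8.94 at stages 1, 3, 4, 5, 6 and 7. Both seed values lay above all seedlings, stage 7 closely below. The means were 10.3 ± 1.60 RPM (SD, n = 2) and 4.29 ± 2.40 RPM (SD, n = 6). The difference of 1.19 on the log2(RPM + 1) scale had an exact two-sided permutation p of 0.0714, the smallest that 28 arrangements allow, and 0.0714 after adjustment over 2 such values. After TMM scaling the values were 7.37 and 3.46 CPM in seed against 2.36 to 9.54 in the seedlings, a difference of 0.19 with an exact permutation p of 0.714. Seed and seedling were thus apart per read and overlapped per gene hit.

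Over the whole family, 0 of 21 tested (0%) were higher and 3 (14.3%) lower in seed, with a median log2 fold change of -1.64. These counts were 0 and 0 without the dry library, 0 and 0 without the immature library and 3 and 0 with scaling to library reads. CHS7 (Glyma.01G228700) had 3.5997 CPM in the immature library and 1.64 in the dry one, against 1.18 to 4.78 in the 6 seedling libraries with a median of 1.95. For CHS7 the log2 fold change was 0.12 ± 0.55 (SE), with an adjusted p of 0.877. CHS8 (Glyma.11G011500) had 3.77 (immature) and 1.83 CPM (dry) in seed and from 1.18 through a median of 1.95 to 4.75 CPM in the seedlings. For CHS8 the log2 fold change was 0.23 ± 0.54 (SE), with an adjusted p of 0.744. Neither passed, stage 7 was the highest library for both, and their near-identical sequences can share reads. With scaling to library reads CHS8 had an adjusted p of 0.0443. CHS-like Glyma.02G130400 had 4.78 CPM in the immature seed library, 5.35 CPM in the dry one and, in the seedlings, a lowest value of 11.4, a median of 16.1 and a highest of 35.6 CPM. For Glyma.02G130400 the log2 fold change was -1.90 ± 0.51 (SE), with an adjusted p of 0.00976. CHS-like Glyma.05G153200 had 7.29 CPM in the immature library and 9.89 in the dry one, against 16.8 to 48.2 in the 6 seedling libraries with a median of 23.7. For Glyma.05G153200 the log2 fold change was -1.64 ± 0.48 (SE), with an adjusted p of 0.0151. Both were lower in seed with stage 7 the highest seedling, and both calls were lost with scaling to library reads. With library totals 1 gene of the family was lower, and Glyma.05G153200 had -1.22 with an adjusted p of 0.0635. The calls of Glyma.02G130400 and Glyma.05G153200 were also lost with stage 2 included and with antisense hits alone. Without the dry library their log2 fold changes were -1.91 and -1.81, with adjusted p of 0.0695 and 0.0685. Without the immature library they were -1.98 and -1.60, with 0.0596 and 0.0816, so the differences stayed about as large with 1 seed library.

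Of 37 other flavonoid genes, 1 of 11 tested (9.09%) were higher and 3 (27.3%) lower in seed, with a median log2 fold change of -0.22. These counts were 0 and 3 without the dry library, 0 and 3 without the immature library and 3 and 3 with scaling to library reads. No gene was higher without stages 3, 4, 6 or 7, each left out alone, and 2 were without stage 1. PAL2 (Glyma.20G180800), the entry enzyme of phenylpropanoid synthesis, had 0.103 CPM in the immature library and 0.0638 in the dry one, against 1.18 to 2.2995 in the 6 seedling libraries with a median of 2.01. For PAL2 the log2 fold change was -4.45 ± 0.63 (SE), with an adjusted p of 0.000264. DFR (Glyma.14G072700), of anthocyanin synthesis, had 0.0171 (immature) and 0.0319 CPM (dry) in seed and from 0.191 through a median of 0.414 to 0.615 CPM in the seedlings. For DFR the log2 fold change was -3.80 ± 0.85 (SE), with an adjusted p of 0.00397. Of 9 MYB5-type genes, regulators of seed coat pigments, 2 were tested and 0 passed in edgeR, also without either seed library, with a median log2 fold change of 0.28. In each list above with no call in a direction, no gene passed an unadjusted p of 0.05 in that direction in edgeR, and DESeq2 called none.

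Several of the genes with the largest differences in favour of seed stood outside these lists. IREG3 (Glyma.20G096402), a metal transporter of chloroplasts and mitochondria, had 187 CPM in the immature library and 90.6 in the dry one, against 0 to 0.383 in the 6 seedling libraries with a median of 0.0191, all antisense. For IREG3 the log2 fold change was 10.73 ± 0.90 (SE), with an adjusted p of 1.44e-05. SUS6 (Glyma.11G212700), a sucrose synthase, had 26.2 CPM in the immature seed library, 26.1 CPM in the dry one and, in the seedlings, a lowest value of 0.102, a median of 0.222 and a highest of 0.381 CPM. For SUS6 the log2 fold change was 6.72 ± 0.44 (SE), with an adjusted p of 9.11e-06. RAR1 (Glyma.20G151900), a chaperone partner in disease resistance, had 26.3 (immature) and 26.2 CPM (dry) in seed and from 0.09198 through a median of 0.179 to 0.343 CPM in the seedlings. For RAR1 the log2 fold change was 6.96 ± 0.47 (SE), with an adjusted p of 9.11e-06. Immature and dry cotyledons differed little for SUS6 and RAR1 with TMM scaling. MAP65-8 (Glyma.11G249900), a microtubule-associated protein, had 17.1 CPM in the immature library and 18.6 in the dry one, against 0 to 0.189 in the 6 seedling libraries with a median of 0.0588. For MAP65-8 the log2 fold change was 7.90 ± 0.60 (SE), with an adjusted p of 1.11e-05. FLS2-like Glyma.05G128200, of a receptor kinase family that senses flagellin, had 6.98 CPM in the immature seed library, 8.2996 CPM in the dry one and, in the seedlings, a lowest value of 0, a median of 0.04005 and a highest of 0.151 CPM. For Glyma.05G128200 the log2 fold change was 7.12 ± 0.60 (SE), with an adjusted p of 1.44e-05. Glyma.15G191100, with no description, had 15.5 CPM in the immature and 0.733 in the dry library and, in the seedlings, a hit only at stage 1, and its adjusted p without the immature library was 0.053.

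The largest differences in the other direction came from a trio with nearly the same counts in every seedling. An HNH endonuclease gene (Glyma.17G103000), an Alba-domain gene (Glyma.04G217100) and the abscisic acid receptor gene PYL5 (Glyma.11G233300) had 133.5 to 134 CPM at stage 1, 221 at stage 3, 202 to 203 at stage 4, 284 to 285 at stage 5, 928 to 929 at stage 6 and 732 to 733 at stage 7. In seed the highest of their values was 0.128 CPM, for PYL5 in the dry library, and all 3 were lower in seed, at adjusted p of 4.02e-05, 3.96e-05 and 0.00011. In the seedlings hits were nearly all sense on the first pair and 0.143% sense on PYL5, and whether they count the same reads was not tested. MLP423 (Glyma.07G243500), of the major latex protein family, and an adaptin gene (Glyma.11G095501) had no hit in seed, at least 653-fold and 537-fold lower. MLP423 had 1.57 to 24.8 CPM in the seedlings and the adaptin gene 6.25 to 17.5.

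Among the genes with most hits were genes of chromosome 13 and of unplaced scaffolds, for which the files give no function. Glyma.13G012400 had 117233 CPM in the immature library and 81957 in the dry one, against 114689 to 158013 in the 6 seedling libraries with a median of 140375. For Glyma.13G012400 the log2 fold change was -0.46 ± 0.40 (SE), with an adjusted p of 0.369. On unplaced scaffolds, Glyma.U006721 had 110428 (immature) and 67081 CPM (dry) in seed and from 76960 through a median of 92981 to 106726 CPM in the seedlings. For Glyma.U006721 the log2 fold change was -0.05 ± 0.39 (SE), with an adjusted p of 0.922. Glyma.U007102 had 75679 CPM in the immature library and 48404 in the dry one, against 36858 to 60671 in the 6 seedling libraries with a median of 48415. For Glyma.U007102 the log2 fold change was 0.34 ± 0.39 (SE), with an adjusted p of 0.506. With scaling to library reads these last 2 were called higher, with log2 fold changes of 1.49 for Glyma.U007102 and 1.06 for Glyma.U006721. Glyma.13G024100 had 57014 CPM in the immature seed library, 45412 CPM in the dry one and, in the seedlings, a lowest value of 75081, a median of 104716 and a highest of 129811 CPM. For Glyma.13G024100 the log2 fold change was -1.01 ± 0.43 (SE), with an adjusted p of 0.0704. Glyma.13G012900 had 74075 (immature) and 37137 CPM (dry) in seed and from 27256 through a median of 33517 to 47727 CPM in the seedlings. For Glyma.13G012900 the log2 fold change was 0.66 ± 0.41 (SE), with an adjusted p of 0.204. None of these 5 passed in edgeR with total hits of the 8 libraries and TMM scaling, and their hits were almost all antisense. Glyma.13G012900 was called higher with library totals (0.90, adjusted p 0.0499) and with scaling to library reads (1.77, 0.000591). Glyma.13G024100 lay lower in both seed libraries than in all seedlings. It was called lower by DESeq2 (-0.96, adjusted p 0.0243), and in edgeR by the model of 35 libraries (-1.13, 0.0247) and with antisense hits alone (-1.14, 0.0349). With sense hits alone Glyma.13G024100 (-5.72), Glyma.13G012400 (-5.27) and Glyma.U007102 (-5.59) were called lower. Glyma.13G011200, with sense hits, was lower in seed with 19395 CPM in the immature library and 12924 in the dry one, against 31241 to 60284 in the 6 seedling libraries with a median of 50401. For Glyma.13G011200 the log2 fold change was -1.54 ± 0.46 (SE), with an adjusted p of 0.0167. Its log2 fold change and adjusted p were -1.21 and 0.132 without the dry library, -2.06 and 0.0617 without the immature one and -0.43 and 0.411 with scaling to library reads.

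Immature and dry cotyledons could be set side by side without a test, as there was 1 library of each. Of 2422 genes with at least 10 CPM in the higher one, 8 (0.33%) differed by 8-fold or more, all of them higher in the immature library. With library totals in place of TMM factors, 6 were higher in the immature and 26 in the dry library, so the direction of the count turned on the scaling. TMT2 (Glyma.06G000200), a sugar transporter of the vacuole membrane, had 15.4 and 0.478 CPM, a ratio of 32.2 with an exact 95% interval of 23.8 to 44.4 that covers counting error only. GAPC2 (Glyma.19G078300), a glycolytic enzyme, had 14.2 and 0.499 CPM, a ratio of 28.4 with an exact 95% interval of 21.1 to 38.9. In the seedlings TMT2 and GAPC2 had 11.3 to 68.7 CPM and followed each other from stage to stage. WOX4 (Glyma.14G084600), a regulator of the vascular cambium, had 28.5 and 1.56 CPM, a ratio of 18.2 with an exact 95% interval of 15.4 to 21.7, and a RING finger gene (Glyma.02G033200) 29.1 and 2.08 CPM, a ratio of 13.9 with an exact 95% interval of 12.03 to 16.3. WOX4 and the RING gene had 2.38 and 2.72 CPM at stage 1 and 19.2 to 41.0 later, so that dry seed and stage 1 were both low. The undescribed genes Glyma.15G191100 and Glyma.09G083000 had 21.1 and 20.4 times more in the immature library. Each gene named here thus had a partner with similar levels in every library. Seed hits were 97.2% sense on TMT2 and 0.686% on GAPC2, 0% on WOX4 and 99.9% on the RING gene. They were 100% sense on both undescribed genes. Whether partners count the same reads was not tested.

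The median log2 ratio of immature to dry was -0.04 over all tested genes, 0.20 over those higher in seed and -0.05 over those lower. It was positive for 58.0% of the genes higher in seed. TMM scaling centres these medians near 0, and with library totals they were -0.68, -0.44 and -0.68.

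Seed cotyledons held a smaller share of sense hits. The sense share was 26.7% in the immature and 27.1% in the dry library and 37.4, 37.9, 33.6, 32.2, 40.9 and 42.6% at stages 1, 3, 4, 5, 6 and 7. Both seed libraries lay below all seedlings, by 10.6 percentage points on average, with an exact two-sided permutation p of 0.0714, the smallest the design allows. Of the genes higher in seed, 39.5% had at least 90% of their hits on the sense strand and 34.9% on the antisense strand, against 38.0% and 32.3% of all tested genes. Of the genes lower in seed, 46.2% were sense and 34.97% antisense.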

How the data were processed

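The deposited table holds counts of small RNA hits per transcript on the sense and antisense strand, made by the authors and, per the file headers, split into total and unique hits. A second deposited table gives CHS hits with the authors' reads per 1000000 (RPM), which equalled hits over library reads in all 36 libraries. The submitters' processing notes name Bowtie 1 as aligner. No mismatch setting or length range is stated in the labels or file headers.

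The lowest-numbered splice transcript stood for each of 52872 genes, and total hits of both strands were summed. Genes were filtered with filterByExpr (minimum count 10, minimum total 15), scaled by TMM and tested with the quasi-likelihood test of edgeR 4.0.16 in R 4.3.3 at an adjusted p of 0.05. The procedure was tested on simulated data. DESeq2 1.42.0 was an alternative, beside other scalings, no filter, strands and unique hits apart, merged identical genes, stage 2 included and each library left out. Single values used exact permutation tests (scipy 1.17.1). Replicate numbers of the groups mark stages or accession order and pair nothing.

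The libraries, the 31 gene lists and the genes named were chosen with earlier results of these data known. Named genes are up to 12 per direction with the largest change, at least 5 CPM and no overlap, up to 10 most abundant per group, up to 2 per list and direction with the smallest p, and up to 6 per direction between immature and dry seed. Others are marked as chosen after their values were seen. Some named genes belong to sets of near-equal counts, with 2 genes for Glyma.13G060751, SULTR3;4 and FRS5 and 3 for ATHB15. Intervals and floors of 3 counts cover counting error only, since reads had no molecular identifiers, and gene hits per library ranged from 20103525 to 63575233.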

Additional observations from a re-analysis of the deposited data

Results flagged for a closer look

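In 11 of 81 values, the highest of the 6 seedling libraries stood apart from the other seedlings by a gap of more than 0.625 of the group's range, a distance that chance gives in about 1 of 20 groups of normally distributed values. Stage 1, the imbibed seed underground, was that library for 7 genes. The dehydrin gene Glyma.07G090400 had 16.69 CPM at stage 1 and at most 2.401 at the other stages. AGO10 gene Glyma.02G002500 had 0.5287 CPM there and at most 0.2453 elsewhere. FLS2-like Glyma.05G128200 had 0.1511 CPM at stage 1, as had Glyma.15G191100, with no hit at any later stage for the second. LEA4-5 genes Glyma.03G144400 and Glyma.19G147200 had 0.03776 and 0.1133 CPM, and the seed maturation protein gene Glyma.10G027600 had 0.03776 CPM, again with no hit later. Values of 0.03776 CPM are below the floor of 3 counts. Where the other 5 seedlings hold no hit, the gap is the whole range by construction and few hits decide it.

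Stage 7, the green cotyledon, stood apart for chalcone synthase. The summed level of CHS7 and CHS8 was 8.941 RPM there and at most 4.482 RPM at the other stages. CHS-like Glyma.02G130400 had 35.63 CPM and Glyma.05G153200 had 48.2 CPM at stage 7, against at most 19.87 and 26.85 CPM elsewhere. IREG3 (Glyma.20G096402) had 0.3829 CPM at stage 6 and at most 0.06132 in the other seedlings.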

How the results depend on the processing

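No paired analysis was possible because the replicate numbers of seed and seedling libraries mark accession order and stages and pair nothing. Against 8383 genes (4197 higher, 4186 lower), the model of 35 libraries called 12617 of 37779, of which 6810 were lower. Antisense hits alone gave 4377 (2133 higher, 2244 lower), with 60 genes in the opposite direction, and sense hits alone 5926, with 66. Scaling to library reads gave 7591 higher and 1837 lower. Leaving out 1 library gave 4105 to 8730 genes, 2147 to 4368 higher and 1958 to 4362 lower, lowest without the immature library. DESeq2 called 9260 genes, unique hits 8660, no filter 10731 of 38430, and with stage 2 included 6450. Of the alternatives for named genes, 1474 kept their side of the threshold, 51 lost the call and 11 gained one. A change of sign in a gene called in neither fit counts among the 1474. In 3, a gene called in at least 1 of the fits changed sign. These were Glyma.15G272100 with antisense hits alone, at -3.58, and 2 genes not called with total hits and TMM. Of those, Glyma.U006721 had 1.06 with scaling to library reads and Glyma.U007102 -5.59 with sense hits alone. Of list counts, 983 stayed within 1.5 times and 257 did not. The immature and dry libraries differed 8-fold in 32 genes with library totals against 8. The CHS difference was 1.38 with a pseudocount of 0.1, 0.45 with CPM from library totals, 0.19 with TMM, 1.52 with stage 2 and 1.05 to 1.39 with 1 library left out. The sense share difference was -12.8 points with unique hits, -7.82 without the 20 most abundant genes, -10.8 with stage 2 and -11.6 to -9.52 with 1 library left out. The causes were not tested. Each stage is 1 library, and 1 hit is worth more CPM in the shallower seedlings. With library totals the floor of 3 counts was 0.0472 to 0.149 CPM. TMM factors of 0.791 to 1.48 shift that floor in each library, and levels near it rest on few hits.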

Other observations

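A small set of genes carried hits on opposite strands in seed and seedling cotyledons. Of 15200 genes with at least 20 hits in each group, 9032 had at least 90% of their hits on 1 strand in both groups. The strand was the same for 8897 of these and opposite for 1.49%, of which 71 were sense in seed and antisense in the seedlings and 64 the reverse. These genes were picked by their strand shares, so the shares are a description with no test.

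EM6 (Glyma.03G056000), a LEA protein gene of the dry embryo in Arabidopsis, had 96.3% sense hits in the immature library and 83.3% in the dry one, on 762 and 406 hits. Sense hits made up 4.94% of its 81 hits at stage 1 and 0% at the later stages, on 31 to 69 hits each. A tetratricopeptide repeat gene (Glyma.04G010200) had 90.6% and 95.3% sense hits in the immature and dry libraries on 64 and 359 hits, and 0.301 to 1.40% in the seedlings on 4577 to 30927 hits. Its antisense hits were thus common in the seedlings and rare in seed, with a log2 fold change of -7.78 and an edgeR adjusted p of 0.000358.

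XTH16 (Glyma.08G107300), an enzyme of cell wall xyloglucan, showed the reverse, with 5.00% and 6.02% sense hits in the immature and dry libraries and 61.9 to 97.8% in the seedlings. Its log2 fold change in total hits was -0.38 and did not pass, at an edgeR adjusted p of 0.723. A protein phosphatase 2C gene (Glyma.11G087000) had 8.70% and 2.33% sense hits in the immature and dry libraries and 78.1 to 100% in the seedlings.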
